A study of Arabidopsis thaliana with 4 samples.

Results

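The B-box zinc finger family of Arabidopsis thaliana comprises CONSTANS (CO) and its relatives, transcription factors that carry B-box domains near their amino terminus. The members were taken from a fixed list of locus identifiers, BBX1 to BBX32, which picked out 32 of the 32548 genes in the deposited expression table. RNA had been sequenced from 2-week-old seedlings of the uba2c mutant (2 libraries, genotype given as uba2c(-/-)) and of the wild type accession Col-0 (2 libraries). All seedlings grew on agar plates of Murashige and Skoog medium under a long-day regime of 16 h of light at 23 °C followed by 8 h of dark at 22 °C. UBA2C encodes a protein that binds RNA, and the study's title ties it to flowering under different ambient temperatures and to transcription of the floral repressor gene FLM. The labels do not name the allele, the position of the lesion, the number of seedlings per library or the hour of harvest.

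In plants, B-box proteins act through protein contacts. Those that also carry a CCT domain near the carboxyl terminus, CO among them, reach DNA through that domain together with NF-Y factors. Many of those without it bind HY5 or other B-box proteins and tune the light response of seedlings. CO accumulates at the end of long days, when light stabilises it against the COP1/SPA ubiquitin ligase, and it then activates FT, the mobile flowering signal. The transcripts of many family members rise and fall over the day under the circadian clock. Since no harvest hour is given, a shift in daily phase and a change in overall level cannot be told apart for any of them.

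Of the 32 members, 17 belong to the class with a CCT domain and 15 to the class with B-boxes only. The reference annotation named a CCT domain or CONSTANS in the product of 17 of the 17 and of 0 of the 15. The annotated proteins ran from 294 to 433 residues in the first class and from 117 to 385 in the second. The classes divide further into 5 structure groups that are customary in the field. Groups I and II have a pair of B-boxes and a CCT domain, group III a single B-box and a CCT domain, group IV a pair of B-boxes alone, and group V a single B-box alone.

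The libraries held between 19720586 and 19847651 reads, recovered from the deposited values. Values are deposited normalised read counts, that is, reads per gene brought to 1 library size. Tests are limma's two-sided test on log2(value + 0.5), fitted to the 22439 genes that reached a value of 1 in 2 or more libraries. P-values were adjusted over all of them by the Benjamini-Hochberg method, and a gene was called when its adjusted p was under 0.05, the false discovery rate (FDR). Fold changes run as uba2c over Col-0 and stay on that log2 scale. UBA2C stood at 209 and 234 in the uba2c libraries, against 799 and 771 in the Col-0 libraries. Every limma call below was lost without uba2c replicate 1 and without uba2c replicate 2, when limma called 0 genes of the table. In those fits 7513 and 7412 genes, and 17 members in each, had an unadjusted p under 0.05, and edgeR called 14 members without uba2c replicate 1 and 12 without uba2c replicate 2.

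Leaf markers other than FAMA and TMM were high in all 4 libraries, and of 3 seed markers none passed 1 read in any library. FAMA and TMM reached at most 346 and 328, and FAMA was called lower (log2 fold change -0.39, limma adjusted p = 0.00448). The summed value of 12 root markers was 2140 and 2208 in uba2c, against 4536 and 5038 in Col-0, and 8 of the 12 were called lower and 1 higher. Those called lower were EXPA7, EXPA18, PRP3, PRP1, LRX1, COBL9, RHD6 and CASP1. SCR was called higher (log2 fold change 0.22, limma adjusted p = 0.0403), and SHR, WOX5 and PLT1 were not called. The summed value of 12 leaf markers was 1082290 and 1160660 in uba2c, against 1151540 and 1151220 in Col-0, with 3 called higher and 6 lower. The summed value of 4 flower markers was 138 and 135 in uba2c, against 183 and 179 in Col-0, and of the 3 tested AP3 alone was called, lower (2 and 2 reads in uba2c, against 18 and 22 in Col-0, log2 fold change -3.02, limma adjusted p = 0.00109). The part of these marker shifts in the results on the family was not tested. In whole seedlings, fewer cells of a type and less RNA per cell cannot be told apart.

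Of 14 tested members with a CCT domain 7 were higher in uba2c seedlings and 3 lower, and of 13 tested members with B-boxes only 2 were higher and 7 lower. BBX17 rose most, to 2.32 times its Col-0 value, and BBX31 fell most, to 0.239 times its Col-0 value. Reads were found for 28 members and 27 passed the filter on low values. Of these 27, 9 were called higher and 10 lower in uba2c, 70.4% in all, beside 34.8% of all genes tested. Among all genes tested, 17.4% were called higher and 17.4% lower. The median log2 fold change was 0.28 in the class with a CCT domain and -0.56 in the class with B-boxes only. The median over all genes tested was -0.00, so the classes lay on opposite sides of it. With edgeR's quasi-likelihood test on recovered reads 9 members were again higher and 10 lower, beside 37.5% of all genes called by edgeR. The members were not treated as replicates, and the difference between the classes was not tested.

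**Figure D1:**
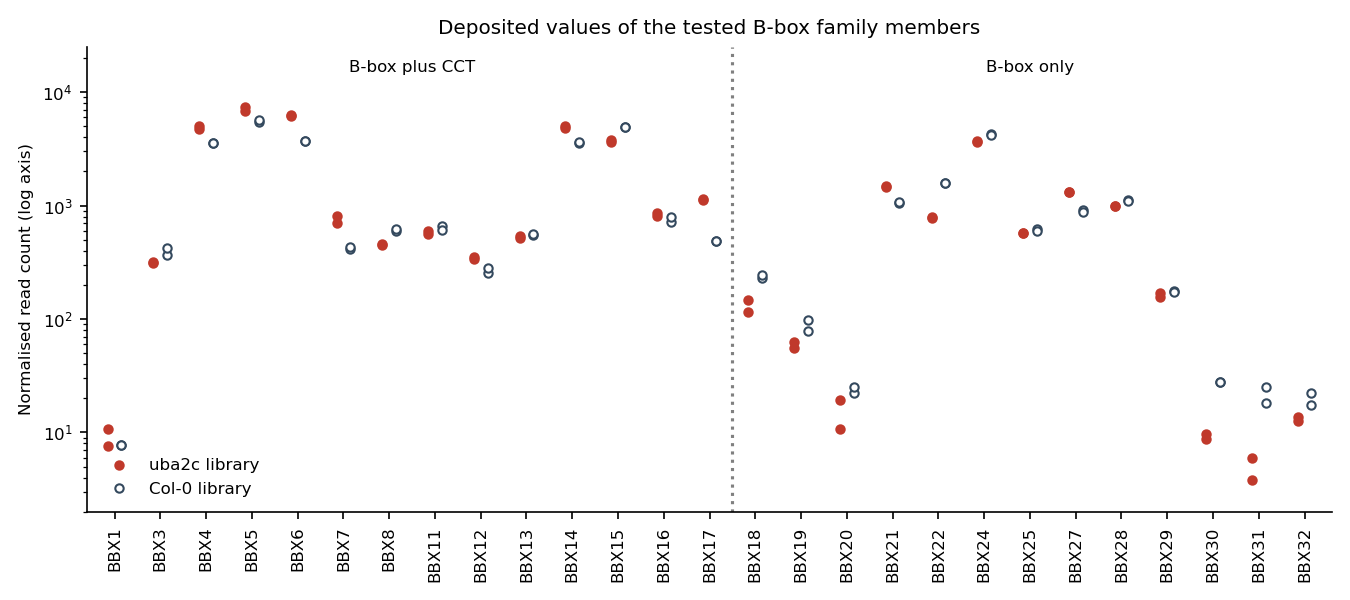
Deposited normalised read counts (log axis) of the 27 tested members, 1 point per library, with uba2c filled and Col-0 open, ordered by BBX number and divided into members with a CCT domain and members with B-boxes only. The genotypes stand well apart for BBX17, BBX22, BBX30 and BBX31, and the libraries of uba2c lie apart from each other for low members such as CO, BBX20 and BBX31.

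The libraries of the genotypes did not overlap for 26 of the 27 tested members, beside 68.1% of all genes tested. Both uba2c libraries were above both Col-0 libraries for 10 members and below them for 16, where 33.6% and 34.5% of all genes tested did the same. The exception was CO. Neither class changed as a block, and each structure group held members that were called higher and members that were called lower. Group I had 3 higher and 1 lower of 5 tested, group II 2 and 1 of 5, group III 2 and 1 of 4, group IV 1 and 4 of 7, and group V 1 and 3 of 6.

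**Figure D2:**
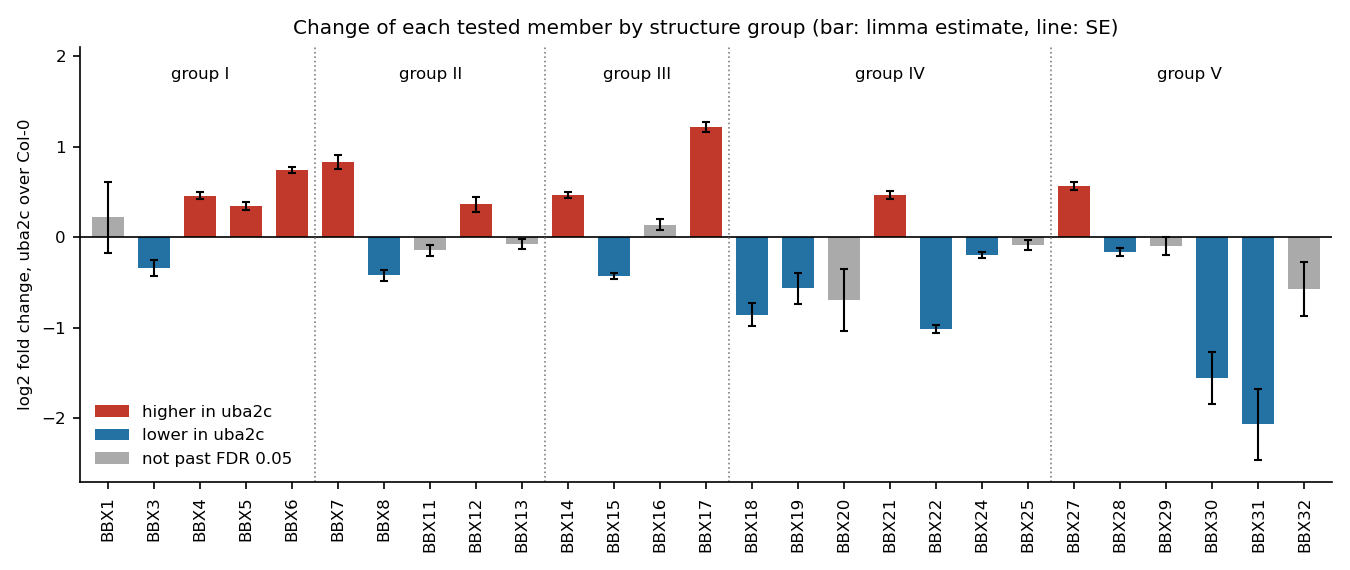
Log2 fold change of uba2c over Col-0 for each tested member (bar, limma estimate) with its standard error (line), arranged by structure group and coloured by call at an FDR of 0.05. Groups I to III, with a CCT domain, hold 7 of the 9 rises, and groups IV and V hold 7 of the 10 falls.

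CO (BBX1, AT5G15840) lies on the minus strand of chromosome 5 from 5170162 to 5173085 in TAIR10.1. It was barely detected, with values of 7.67 and 10.8 in uba2c and 7.75 and 7.75 in Col-0. These correspond to 8 and 11 reads in uba2c and 8 and 8 in Col-0, and the genotypes overlapped. The log2 fold change was 0.22 (SE 0.39, limma adjusted p = 0.696), and uba2c had 1.18 times the reads of Col-0, with a 95% exact interval from 0.575 to 2.46 that covers counting error only. A change of CO within that interval was not detectable at this depth. Its tandem neighbour COL1 (BBX2), which is separated from it by 3005 bases on the same strand, had no read in any library. A count of 0 allows up to 3 reads in a library. Genes on the opposite strand share 1967 bases with CO (AT5G15843) and 1807 bases with COL1 (AT5G15845), the whole annotated span of COL1. Whether reads in such shared stretches were counted is not stated. The effect of these overlaps on the low counts of CO and the missing reads of COL1 was not tested.

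The strongest group I transcripts rose together in uba2c. COL5 (BBX6, AT5G57660), which can promote flowering when overexpressed in Arabidopsis, had values of 6116 and 6348 in uba2c, against 3727 and 3713 in Col-0. Both uba2c libraries were far above both Col-0 libraries, and the log2 fold change was 0.74 (SE 0.03, limma adjusted p = 4.41e-06). COL3 (BBX4), a COP1-interacting factor of red light responses, stood at 4717 and 5008 in uba2c and at 3538 and 3536 in Col-0 (log2 fold change 0.46, limma adjusted p = 9.23e-05). COL4 (BBX5), a repressor of flowering, was at 6836 and 7462 in uba2c and at 5509 and 5728 in Col-0 (0.35, limma adjusted p = 0.000983). Thus a reported promoter and a reported repressor of flowering moved the same way. COL2 (BBX3), a close relative of CO, moved against these 3, with 316 and 309 in uba2c against 368 and 426 in Col-0 (-0.34, limma adjusted p = 0.0172). DESeq2 did not make that call (adjusted p = 0.0534). Without Col-0 replicate 2 the adjusted p was 0.0992 in limma and 0.0929 in edgeR, and without uba2c replicate 1 or 2 it was 0.152 or 0.173 in edgeR, within 0.00169 to 0.244 over all alternatives.

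In group II, COL9 (BBX7, AT3G07650), which delays flowering by lowering CO and FT expression, had 811 and 703 in uba2c, against 418 and 429 in Col-0. Its log2 fold change was 0.83 (SE 0.08, limma adjusted p = 0.000126). Its nearest relative COL10 (BBX8, AT5G48250) moved the other way, with 458 and 445 in uba2c against 591 and 618 in Col-0. The log2 fold change of BBX8 was -0.42 (SE 0.06, limma adjusted p = 0.00124), so the relatives BBX7 and BBX8 went opposite ways, each without overlap between the genotypes. COL14 (BBX12) rose modestly, with 352 and 335 in uba2c and 254 and 280 in Col-0 (0.37, limma adjusted p = 0.0108). In edgeR the BBX12 call was lost without uba2c replicate 1 (adjusted p = 0.115) and without uba2c replicate 2 (0.0833), within 0.00217 to 0.174 over all alternatives. COL13 (BBX11), at -0.15, and COL15 (BBX13), at -0.08, did not pass (limma adjusted p = 0.117 and 0.334). COL11 (BBX9) and COL12 (BBX10) had no read in any library.

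The largest rise of the family was in group III. COL8 (BBX17, AT1G49130, chromosome 1 from 18174373 to 18176389, minus strand, TAIR10.1) encodes a CO-interacting protein that delays flowering. It stood at 1114 and 1146 in uba2c, against 487 and 485 in Col-0. The log2 fold change was 1.22 (SE 0.05, limma adjusted p = 2.64e-06), beside 2.29% of all genes tested that were called higher by at least 2-fold. COL6 (BBX14) also rose, with 4855 and 4998 in uba2c and 3530 and 3610 in Col-0 (0.46, limma adjusted p = 4.88e-05). COL16 (BBX15), its close relative, fell to 3622 and 3764 in uba2c, against 4968 and 4952 in Col-0 (-0.43, limma adjusted p = 8.05e-05). BBX14 and BBX15 therefore changed by similar amounts in opposite directions. COL7 (BBX16) was at 813 and 852 in uba2c and at 723 and 791 in Col-0 (0.14, limma adjusted p = 0.116). This is about the size of the median of 8 reference genes (0.13, with 4 called higher and 0 lower). The reference genes ran from -0.06 to 0.32, and the called rises of BBX5 (0.35) and BBX12 (0.37) lay just above that range.

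Group IV holds the B-box proteins best known from seedling light responses. BBX22 (LZF1, AT1G78600, chromosome 1 from 29566863 to 29568931, plus strand, TAIR10.1) acts with HY5 to promote chlorophyll and anthocyanin accumulation. Its values were 771 and 792 in uba2c, against 1573 and 1579 in Col-0. The libraries of each genotype nearly coincided, and the log2 fold change was -1.01 (SE 0.04, limma adjusted p = 3.22e-06). BBX21 (STH2), a partner of HY5 that likewise promotes the light response, went up instead, with 1493 and 1454 in uba2c and 1054 and 1079 in Col-0 (0.47, limma adjusted p = 0.00015). Relatives with a like reported action thus moved in opposite directions. BBX18 and BBX19, a pair of relatives that oppose the light response, were both called lower. BBX18 had 116 and 147 in uba2c against 232 and 242 in Col-0 (-0.85, limma adjusted p = 0.00164). BBX19, which also binds CO and delays flowering, had 62.6 and 55.9 in uba2c against 98.0 and 78.4 in Col-0 (-0.56, limma adjusted p = 0.0374). The BBX19 call was among the least stable of the family. DESeq2 gave an adjusted p of 0.15. Without Col-0 replicate 1 it was 0.218 in limma and 0.193 in edgeR, and without uba2c replicate 1 or 2 it was 0.15 or 0.22 in edgeR, within 0.013 to 0.261 over all alternatives.

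BBX24 (STO), an abundant repressor of the light response first described for salt tolerance in yeast, was slightly lower, with 3735 and 3618 in uba2c and 4242 and 4179 in Col-0 (log2 fold change -0.20, limma adjusted p = 0.00397). In edgeR the BBX24 call was lost without uba2c replicate 2 (adjusted p = 0.0581), within 0.000456 to 0.0973 over all alternatives. Its relative BBX25 (STH) had 569 and 579 in uba2c and 622 and 594 in Col-0 (-0.08, limma adjusted p = 0.291). BBX20 (BZS1) had few reads and values of 19.3 and 10.8 in uba2c and 22.3 and 25.2 in Col-0 (-0.70, limma adjusted p = 0.154). BBX23 had 1 read in all, in uba2c 2, and was not tested.

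Group V contains the largest falls of the family. BBX30 (miP1a, AT4G15248) and BBX31 (miP1b, AT3G21890) encode microproteins of 117 and 121 residues, little more than a B-box, that bind CO and the co-repressor TOPLESS and restrain FT. BBX31 was at 3.83 and 5.89 in uba2c, against 25.2 and 18.4 in Col-0, with 4 and 6 reads in uba2c and 26 and 19 in Col-0. BBX30 was at 9.63 and 8.82 in uba2c, against 28.1 and 28.1 in Col-0, with 10 and 9 reads in uba2c and 29 and 29 in Col-0. Despite these low counts the genotypes did not overlap for either gene. The log2 fold change was -2.07 (SE 0.39, limma adjusted p = 0.00475) for BBX31 and -1.56 (SE 0.29, limma adjusted p = 0.00441) for BBX30. Among all genes tested, 3.83% were called lower by at least 2-fold. The uba2c libraries had 0.221 times the BBX31 reads of Col-0 (exact 95% bounds 0.0993 and 0.445) and 0.326 times the BBX30 reads (0.183 and 0.555). In edgeR the BBX31 call was lost without uba2c replicate 1 (adjusted p = 0.0801) and without uba2c replicate 2 (0.0606), within 0.000606 to 0.108 over all alternatives. The BBX30 call was lost in edgeR without uba2c replicate 2 (adjusted p = 0.0519), within 0.000917 to 0.0837 over all alternatives.

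The microprotein genes each sit tail to tail with a member of group II. BBX31 and BBX10 lie on chromosome 3 with 486 bases and 0 genes between them, and BBX30 and BBX9 lie on chromosome 4 with 284 bases and 0 genes between them. In both pairs the microprotein gene had reads in every library and its neighbour had none. BBX27, whose role is little known, rose to 1309 and 1326 in uba2c, against 912 and 869 in Col-0 (0.56, limma adjusted p = 8.13e-05). BBX28, which restrains HY5 activity, was at 996 and 986 in uba2c and at 1124 and 1092 in Col-0 (-0.16, limma adjusted p = 0.0274). The BBX28 call did not hold with DESeq2 (adjusted p = 0.167) or with median-centred libraries (0.103). In limma it was lost without Col-0 replicate 1 (0.14) or 2 (0.0527), and in edgeR without Col-0 replicate 1 (0.129) and without uba2c replicate 1 (0.112) or 2 (0.128), within 0.0176 to 0.167 over all alternatives. BBX29 and BBX32, at -0.09 and -0.57, did not pass (limma adjusted p = 0.51 and 0.181). BBX32, which acts against BBX21, had 12.5 and 13.7 in uba2c and 22.3 and 17.4 in Col-0. BBX26 had no read in any library.

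Levels were compared between members as mean normalised reads per kb of annotated exon. BBX5 was the most abundant member, at 6564 per kb in uba2c and 5159 per kb in Col-0. In Col-0 it was followed by BBX15, BBX24, BBX4 and BBX6, at 2855, 2854, 2735 and 2378 per kb, and the first 2 of these 4 were almost equal. In uba2c the order after BBX5 was BBX6, BBX4, BBX24 and BBX15, at 3984, 3761, 2492 and 2126 per kb. BBX17 ranked 10 in uba2c, against 16 in Col-0, and BBX22 ranked 13 in uba2c, against 7 in Col-0. CO, at 3.16 per kb in uba2c and 2.65 per kb in Col-0, was the lowest of the tested members in both genotypes on this scale. The annotated exons of CO come to 2924 bases, its whole annotated span, and its level per kb depends on that length. Before division by length, the mean of CO in uba2c was 9.24, above that of BBX31 (4.86). In Col-0 it was 7.75, below that of BBX31 (21.8). Members with a CCT domain made up 77.0% and 78.1% of the family's summed level per kb in the uba2c libraries, against 71.0% and 71.7% in the Col-0 libraries. The sum for members with a CCT domain was 20371 and 21429 per kb in uba2c, against 16501 and 16797 in Col-0. The sum for members with B-boxes only was 6090 and 6019 per kb in uba2c, against 6729 and 6628 in Col-0.

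**Figure D3:**
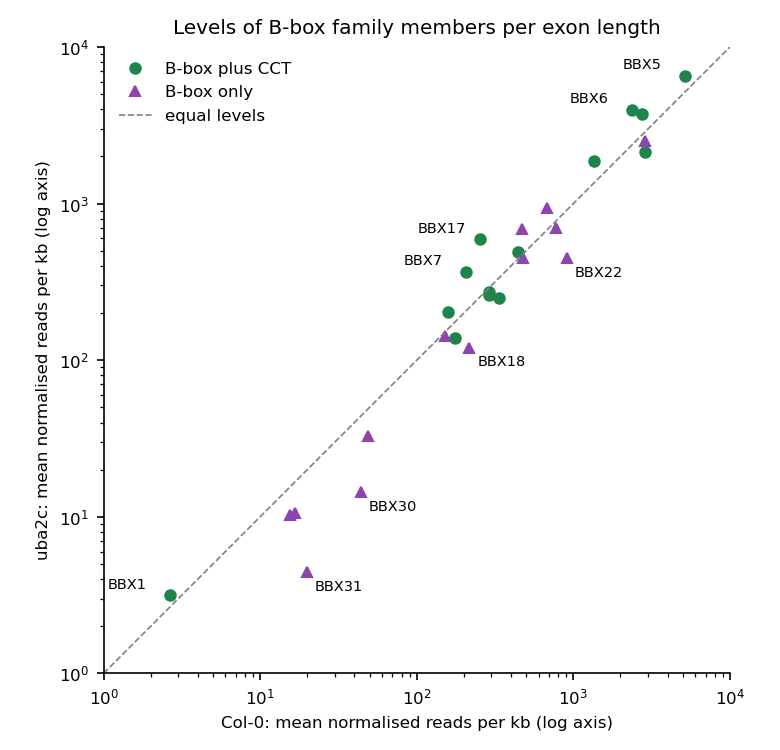
Mean normalised reads per kb of exon in uba2c (vertical, log axis) and Col-0 (horizontal, log axis) for each tested member, with members that have a CCT domain as circles and members with B-boxes only as triangles. The circles BBX5 and BBX6 and the triangles BBX21 and BBX27 lie above the dashed line of equal levels, and the circle BBX15 and the triangles BBX22, BBX18, BBX30 and BBX31 below it.

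The 250 bases before each annotated start were searched on both strands for 5 short motifs, of which some are known from light and clock regulation. The evening element (AAAATATCT), a clock motif, occurred before 2.44% of tested genes and before 3 of the 32 members, BBX3, BBX8 and BBX24. All 3 were called lower in uba2c, so it occurred before 3 of the 10 members called lower and 0 of the 9 called higher. The log2 fold changes of BBX3, BBX8 and BBX24 were -0.34, -0.42 and -0.20, and DESeq2 did not call BBX3 (adjusted p = 0.0534). The annotated genes AT3G02390, AT3G02400 and AT3G02410 reach into the BBX3 window. Among all 547 tested genes with an evening element in this window 28.0% were called lower and 14.4% higher, beside 17.4% and 17.4% of all tested genes with a window. The G-box (CACGTG), a target of HY5, was found before BBX5, BBX9, BBX10 and BBX30 and before 7.13% of tested genes. The CO-responsive motif (TGTGNNATG) was found before BBX30 alone among the members and before 3.28% of tested genes. The CCAAT box (CCAAT) was found before 13 members and 47.2% of tested genes, and the CCA1-binding site (AAAAATCT) before 3 members and 6.53% of tested genes. These shares cover tested genes only, while the 32 members include untested ones. BBX9 and BBX10, with a G-box, and BBX26, with a CCA1-binding site, were not tested.

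The windows before 3 members that fell are shown as examples and are not the full set. They are BBX8 (with 3 evening elements, at 235, 199 and 18 bases before the start), BBX24 (1 evening element, at 52 bases) and BBX30 (CO-responsive motif at 232 bases and G-box at 72 bases). Not shown are BBX3 (evening element at 189 bases) and BBX28 (CCA1-binding sites at 96 and 47 bases), which were also called lower. BBX5, which was called higher, carries a G-box at 169 bases and is not shown either. The CCAAT box was left out of this choice and is not marked. Capitals mark the motifs, the evening elements of BBX8 at 235 and 199 bases being on the opposite strand. Each is written 5′ to 3′ on the gene's own strand, from the TAIR10.1 assembly of RefSeq, at chr5:19563833-19564082 (minus strand), chr1:1829984-1830233 (minus strand) and chr4:8708591-8708840 (plus strand).
BBX8: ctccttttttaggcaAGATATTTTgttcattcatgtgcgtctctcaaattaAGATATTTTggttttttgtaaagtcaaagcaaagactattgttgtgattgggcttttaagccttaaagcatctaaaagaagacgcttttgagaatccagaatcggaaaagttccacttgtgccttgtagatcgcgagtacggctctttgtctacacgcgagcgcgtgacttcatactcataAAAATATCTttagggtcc
BBX24: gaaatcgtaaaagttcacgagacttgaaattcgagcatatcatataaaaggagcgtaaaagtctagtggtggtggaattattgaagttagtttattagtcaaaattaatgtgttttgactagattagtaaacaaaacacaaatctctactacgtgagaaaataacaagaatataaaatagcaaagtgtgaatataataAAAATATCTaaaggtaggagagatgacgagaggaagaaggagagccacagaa
BBX30: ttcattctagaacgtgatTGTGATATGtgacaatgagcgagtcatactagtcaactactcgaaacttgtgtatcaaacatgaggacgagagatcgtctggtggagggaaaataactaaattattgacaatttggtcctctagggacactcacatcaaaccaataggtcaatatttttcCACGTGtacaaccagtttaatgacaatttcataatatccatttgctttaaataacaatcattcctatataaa
A match is a description of the letters and not a binding site.

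The genes that act with the family are given by role, beside 34.8% of all genes tested that were called, 17.4% in each direction. Of 9 partners and targets of CO, 5 were called higher and 0 lower, with a median log2 fold change of 0.27. They included FT (2.27, limma adjusted p = 0.00168), the NF-Y subunit gene NF-YB2 (0.98, 1.82e-05), the co-repressor gene TPL (0.38, 0.000181) and SOC1 (0.37, 0.000746), a flowering gene downstream of FT. FT had few reads, 45 and 31 in the uba2c libraries and 6 and 9 in the Col-0 libraries (SE of the log2 fold change 0.34). CO, with no detectable change, and the microprotein genes, which were lower, had few reads too. A link between these genes and the rise of FT was not tested. Of 12 regulators of CO transcription, 3 were higher and 3 lower (median -0.00). FKF1 and GI, whose products together remove repressors of CO, were both lower, at -1.19 (limma adjusted p = 5.11e-06) and -0.38 (0.000216). CDF2, a repressor of CO, was higher at 0.67 (limma adjusted p = 0.00105), as was FBH3, an activator of CO transcription, at 0.37 (0.00226). CDF3, of the same family of repressors as CDF2 and named after its values were seen, was lower at -0.30 (limma adjusted p = 0.00293).

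Of 12 light signalling regulators, 3 were higher and 2 lower, with a median of -0.07. PHYB and PHYA, red and far-red photoreceptor genes, rose by 0.88 (limma adjusted p = 3.59e-06) and 0.61 (2.01e-05). The photoreceptor gene CRY2 rose by 0.20 (limma adjusted p = 0.00272). SPA1, of the ligase that removes CO in darkness, changed by -0.69 (2.44e-05) and COP1 by -0.20 (0.0171). HY5 was at -0.31 and did not pass in limma (adjusted p = 0.0532), while edgeR called it lower (adjusted p = 0.0446). Of 14 core clock genes 6 were higher and 3 lower (median 0.02), with the morning genes LHY at 1.37 (limma adjusted p = 0.000181) and CCA1 at 0.27 (0.00761) and the evening genes PRR5 at -1.23 (5.97e-06) and ELF4 at -0.56 (0.00169). RVE4, a clock activator related to LHY, was at 0.28 (limma adjusted p = 0.00272). Named after their values were seen, the evening gene TOC1 was higher at 0.17 (limma adjusted p = 0.0326) and the morning gene PRR9 lower at -0.36 (0.0172), so neither morning nor evening genes all went 1 way. Of 10 genes that HY5 and B-box proteins are known to act on, 0 were higher and 6 lower (median -1.31). Among these were DFR (-2.12, limma adjusted p = 0.00019), LDOX (-1.96, 0.000365) and FLS1 (-0.94, 0.000468) of flavonoid synthesis and the light stress gene ELIP1 (-2.13, 0.000265). Reads were few for some, as for DFR, with 17 and 18 in uba2c and 82 and 74 in Col-0. The 4 not called are named after their values were seen. CHS, with 827 to 936 reads, was at 0.14 (limma adjusted p = 0.0597) and CHI at 0.10 (0.424). ELIP2, with 6 to 11 reads, was at 0.34 (0.557). F3H, at -0.97 (0.299), had at most 3 reads in any library.

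**Figure D4:**
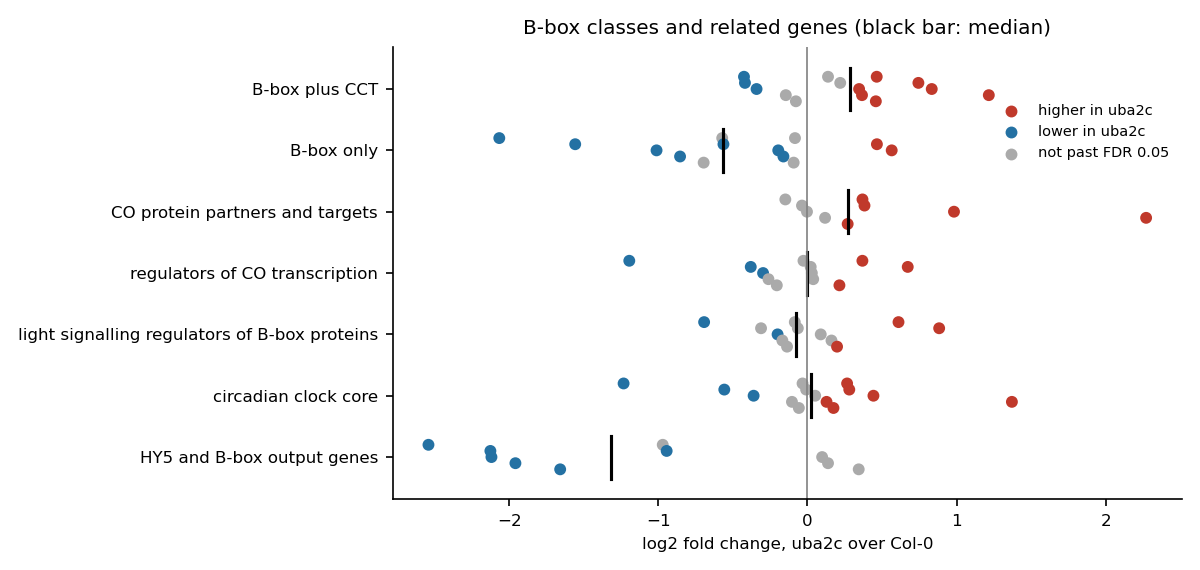
Log2 fold change of uba2c over Col-0 for tested genes of the B-box classes and of 5 lists of related genes, 1 point per gene, coloured by call at an FDR of 0.05, with the median of each list as a black bar. The medians are 0.28 for members with a CCT domain, -0.56 for members with B-boxes only and -1.31 for HY5 and B-box output genes, of which 6 of 10 were called lower and 4 were not called.

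In all, 11 members overlap a gene on the opposite strand, CO and COL1 among them. Of the called members, 6 do so, namely BBX3, BBX8, BBX12, BBX14, BBX17 and BBX24. Whether reads were counted by strand is not stated for these files, so reads of a member and of an overlapping partner that is transcribed cannot be told apart.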

How the data were processed

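Reads were single-end, 50 bp long. FastQC, HISAT2, SAMtools 1.9, featureCounts, edgeR and the TAIR10 build are named, per the submitters' processing notes, and the counting options and strand are not stated there. The deposited values are a signal for each gene, namely read counts that the authors scaled to 1 library size, and they behave as quantile-adjusted pseudo-counts of edgeR. With size ratios and a dispersion fitted to each genotype separately, which gave the same dispersion in both, 100% of the values of each library returned to whole reads (tolerance 0.001).

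The main test suits normalised values: limma 3.58.1 with a trend of variance on mean, in R 4.3.3, with group as its only term. Alternatives were edgeR 4.0.16 (quasi-likelihood test) and DESeq2 1.42.0 on recovered reads, other pseudocounts, filters and scalings, a GC and length correction, and leaving out each library. edgeR with TMM called 8413 genes. The limma and edgeR fits were checked on simulated data. The labels do not say that libraries 1 and 2 of a genotype came from separate plants, so the spread behind the p-values may be technical.

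All 32548 identifiers matched the TAIR10.1 annotation. The table held 0 columns of other samples. The members, the lists of related genes and the tests were chosen with earlier results of these data known. All 32 members are named whatever their result. From each list of related genes up to 4 called genes by p are named, and FT, SOC1, HY5, COP1, GI, FKF1, LHY, CCA1 and PRR5 in any case. Genes of these lists named beyond that rule are marked as named after their values were seen.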

Additional observations from a re-analysis of the deposited data

How the results depend on the processing

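Of the 27 tested members, 27 kept the sign of their change in 17 of the 19 alternatives. In the limma and edgeR fits without uba2c replicate 2, 26 did, the exception being CO. No called member changed sign. Without limma's trend 1601 genes were higher and 1988 lower, 6 members were lower and 4 members with B-boxes only were lower, and the calls of BBX3, BBX5, BBX12, BBX19, BBX24 and BBX28 were lost (adjusted p between 0.0671 and 0.128). DESeq2 called 2514 genes higher and 2417 lower. Over the fits that left out 1 library, limma called 0 to 3352 genes higher and 0 to 3167 lower. In edgeR 1553 genes were higher and 1410 lower without uba2c replicate 1, 1515 and 1463 without uba2c replicate 2, and up to 3350 and 3370 without a Col-0 library. Over both tools these fits called 0 to 10 members higher and 0 to 9 lower, 0 to 8 members with a CCT domain higher and 0 to 3 lower, and 0 to 2 members with B-boxes only higher and 0 to 7 lower. The cause was not tested. With libraries centred on their median, 60.8% of called genes were higher (5261 against 3388 lower), beside 50.0% (3908 against 3901), and 10 members were higher and 9 lower. BBX11 was called lower after the GC and length correction (adjusted p = 0.0187), and BBX16 was called higher in 3 alternatives, including median centring. With the replicate number as a block, 9 members were higher and 10 lower, as without it, and 4039 genes were higher and 3986 lower. The deviations of same-numbered libraries had a correlation of 0.0083 across genes, and the numbers were not taken to pair the libraries. Depth limits CO, BBX20, BBX30, BBX31 and BBX32, which had at most 29 reads in any library.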

Other observations

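Of the genes that overlap a member on the opposite strand, AT2G31390 and AT2G33490 passed the test and the others did not pass or had too few reads to be tested. AT2G31390, which shares 48 bases with BBX25, was at 1165 and 1161 in uba2c, against 1744 and 1728 in Col-0 (log2 fold change -0.58, limma adjusted p = 3.28e-05), while BBX25 itself did not pass. AT2G33490, which shares 192 bases with BBX12, was at 344 and 336 in uba2c, against 276 and 286 in Col-0 (0.27, limma adjusted p = 0.0213), the same direction as BBX12. The partners of BBX14 and BBX24 had no read in any library, and the partner of BBX17 had at most 2 reads. AT3G02370, which shares 771 bases with BBX3, was at 74.2 and 62.7 in uba2c, against 78.5 and 79.5 in Col-0 (-0.21, limma adjusted p = 0.341). AT3G21140, which shares 13 bases with BBX32 on the same strand, was at 463 and 465 in uba2c, against 370 and 361 in Col-0 (0.34, limma adjusted p = 0.00431), where BBX32 lay lower.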
